A study of Mus musculus with 16 samples.

Results

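Mx1, Mx2, Samsn1, Runx1, Bach1, Ets2 and Erg are 7 genes of immune and blood lineages in the part of mouse chromosome 16 that is present in 3 copies in Dp16 mice. They were taken by gene name from a deposited table of 55385 genes. A total of 17132 genes passed the filter on low counts, and 384 genes of the table, 105 of them past the filter, lay in the triplicated segment from Lipi to Zbtb21. All 7 genes passed. Mx1 reached the filter's level in 3 of 4 5xFAD-Dp16 and 4 of 4 5xFAD libraries and in 0 libraries of Dp16 and WT, and Mx2 in all 8 amyloid libraries, 2 of Dp16 and 1 of WT. Both were therefore tested only because of the groups in which they were high.

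Polyadenylated RNA of the hippocampus was sequenced in 16 libraries from mice aged 9 months, with 2 females and 2 males in each of 4 genotypes. The 5xFAD-Dp16 mice carry both the amyloid transgenes and the duplication, the 5xFAD mice the transgenes alone, the Dp16 mice the duplication alone, and the wild-type (WT) mice neither. 5xFAD denotes human transgenes that bear familial Alzheimer mutations and drive amyloid deposition, under the control of the Thy1 promoter, which is active mostly in neurons, and Dp16 denotes a duplication of the mouse segment that corresponds to most of human chromosome 21. The labels name the C57BL/6J strain for the WT mice only and give no treatment, litter or batch, and only the design text says that the samples are separate mice.

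The gene products belong to several arms of immunity. Mx1 and Mx2 encode interferon-induced GTPases that block viruses, and laboratory mouse strains including C57BL/6 carry defective alleles of them. Samsn1 encodes an adaptor that dampens receptor signalling in B cells and other blood cells. Runx1, Erg and Ets2 encode transcription factors: Runx1 is required for blood stem cells to form and is used by myeloid cells, Erg maintains endothelial and blood stem cells, and Ets2 acts downstream of Ras and mitogen signals in many cell types. Bach1 encodes a heme-sensing repressor of heme oxygenase and other antioxidant and iron genes. Microglia are the brain's resident myeloid cells, and they change their transcription around amyloid plaques.

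Library totals ran between 16922937 and 25308693 counts. The labels were checked against the transgenes' promoter gene and the segment. Thy1, whose reads cannot be told apart from the transcribed Thy1 parts of the transgenes, lay between 2413 and 2677 CPM (counts scaled to one library size, which the TMM method adjusts by a trimmed mean of ratios) in 5xFAD-Dp16 and between 1353 and 2819 CPM in 5xFAD, against 840 to 934 CPM in Dp16 and 697 to 791 CPM in WT. The summed level of the tested segment genes was 9554 to 10134 CPM in 5xFAD-Dp16 and 6260 to 6489 CPM in 5xFAD, and it was 10296 to 10578 CPM in Dp16 and 6793 to 7081 CPM in WT. All 8 markers of hippocampal neurons passed the filter, with summed levels of 676 to 948 CPM in 5xFAD-Dp16, 392 to 833 CPM in 5xFAD, 686 to 1189 CPM in Dp16 and 748 to 1060 CPM in WT. In 6 libraries (5xFAD-Dp16 1, 5xFAD 6, 13 and 15, Dp16 14 and WT 4), a list of 16 thalamus genes stood 1.51 to 2.11 log2 units above the median library, against -0.42 to 0.05 in the other 10. Of the 4 5xFAD libraries 3 are among them, so thalamus content and the 5xFAD genotype are partly confounded, and a call on the 7 genes that changes without these libraries is given both ways. In bulk tissue, fewer cells of a type and less RNA per cell cannot be told apart.

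The genes lie along the segment in the order Samsn1 (chr16:75858793-76022281), Bach1 (chr16:87698945-87733346), Runx1 (chr16:92601466-92826149), Erg (chr16:95359169-95586593), Ets2 (chr16:95702075-95721051), Mx1 (chr16:97447035-97462907) and Mx2 (chr16:97535308-97560900), in GRCm38. Bach1, Ets2 and Mx2 are on the plus strand and the other 4 on the minus strand. The file types Mx1 and Mx2 as polymorphic pseudogenes and the other 5 as protein coding. Mx1 and Mx2 are close paralogs, and how reads that map to several places were counted was not given, so their separate values are uncertain. The only annotated exon overlap was that of Runx1 with the antisense gene Gm26626, which shares 106 exonic bases and had 11 counts in all over the 16 libraries.

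RefSeq promoter windows (GRCm38.p6) matched 5 of the 7 genes: 1 window each for Samsn1, Bach1 and Ets2, 2 for Runx1 and 3 for Erg. The 250 bases before each start are shown for the genes that rose with amyloid (Samsn1 and Runx1) and for those that rose with the duplication (Bach1 and Ets2), 5′ to 3′ on the gene's strand, with matches to an ETS motif in capitals.
Samsn1 (chr16:75909267-75909516, minus strand): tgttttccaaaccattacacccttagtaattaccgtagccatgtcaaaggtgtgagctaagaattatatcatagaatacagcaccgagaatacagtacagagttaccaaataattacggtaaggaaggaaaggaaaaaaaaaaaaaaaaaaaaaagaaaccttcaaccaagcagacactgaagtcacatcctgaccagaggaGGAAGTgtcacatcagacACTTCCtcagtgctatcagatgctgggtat
Runx1, upstream start (chr16:92826075-92826324, minus strand): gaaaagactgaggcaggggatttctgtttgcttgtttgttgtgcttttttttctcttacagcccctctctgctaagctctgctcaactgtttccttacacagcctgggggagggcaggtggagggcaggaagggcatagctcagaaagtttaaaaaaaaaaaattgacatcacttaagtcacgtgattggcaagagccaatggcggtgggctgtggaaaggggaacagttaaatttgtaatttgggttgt
Runx1, downstream start (chr16:92697330-92697579, minus strand): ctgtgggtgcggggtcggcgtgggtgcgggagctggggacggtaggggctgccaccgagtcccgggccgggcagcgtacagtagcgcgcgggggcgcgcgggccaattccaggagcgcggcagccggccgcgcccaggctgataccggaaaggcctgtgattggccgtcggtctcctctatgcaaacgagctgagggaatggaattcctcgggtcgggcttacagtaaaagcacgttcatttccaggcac
Bach1 (chr16:87698704-87698953, plus strand): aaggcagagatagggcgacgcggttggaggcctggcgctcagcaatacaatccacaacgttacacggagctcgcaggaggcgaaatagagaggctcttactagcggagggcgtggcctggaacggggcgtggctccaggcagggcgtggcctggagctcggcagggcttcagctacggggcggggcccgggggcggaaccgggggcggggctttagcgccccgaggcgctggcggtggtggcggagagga
Ets2 (chr16:95702157-95702406, plus strand): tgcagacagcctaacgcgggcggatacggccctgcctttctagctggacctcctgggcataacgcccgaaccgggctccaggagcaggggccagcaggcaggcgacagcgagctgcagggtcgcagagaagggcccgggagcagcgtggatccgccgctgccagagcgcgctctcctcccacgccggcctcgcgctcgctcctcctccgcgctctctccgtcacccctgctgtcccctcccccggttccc

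A search for 4 motifs was made on both strands of these windows: the ETS motif GGAAGT, the RUNX motif TGTGGT, the Bach and AP-1 motif TGAGTCA, and the interferon response element, which is GAAA, any 2 bases and GAAA. Among the 8 windows the Samsn1 window alone held a match. It held GGAAGT at position -48 on the plus strand and again at -30 on the minus strand, where it reads ACTTCC, counted from the annotated start. That start is internal, as the Samsn1 window lies inside the annotated span of the gene. Whether it is used in these libraries was not tested. Of 32851 mouse promoter windows of the same length, 19.7% held the ETS motif, 14% the RUNX motif, 4.46% the Bach and AP-1 motif and 2.98% the interferon element. The windows differed in base composition: G and C made up 38.4% of the Samsn1 window, 45.6% and 67.6% of the upstream and downstream Runx1 windows, 69.2% of the Bach1 window and 71.6% of the Ets2 window, and 36% to 48.8% of the 3 Erg windows. No other exact match was found in the 250 bases searched, which says nothing about binding elsewhere.

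Scaled by gene length, Ets2 was the most abundant of the 7. Its deposited RPKM (read counts divided by the length of the gene and by the library's total) averaged 29.7 ± 1.02 in 5xFAD-Dp16, 18.2 ± 2.84 in 5xFAD, 31.8 ± 3.59 in Dp16 and 21.5 ± 1.31 in WT (SD, n = 4 each). In WT, Bach1 (2.39 ± 0.295 RPKM) and Erg (2.00 ± 0.304 RPKM) came next and overlapped each other, followed by Samsn1 (0.680 ± 0.145 RPKM) and Runx1 (0.228 ± 0.0358 RPKM). Mx2 and Mx1 were lowest in WT, at 0.0681 ± 0.0810 and 0.0344 ± 0.0248 RPKM, and their ranges overlapped. In 5xFAD-Dp16 the order differed in that Samsn1, at 3.28 ± 0.285 RPKM, stood above Erg, at 2.06 ± 0.605 RPKM, without overlap, while it overlapped Bach1 at 3.89 ± 0.478 RPKM. Runx1 averaged 0.928 ± 0.0823, Mx2 0.680 ± 0.231 and Mx1 0.340 ± 0.164 RPKM in 5xFAD-Dp16.

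**Figure D1:**
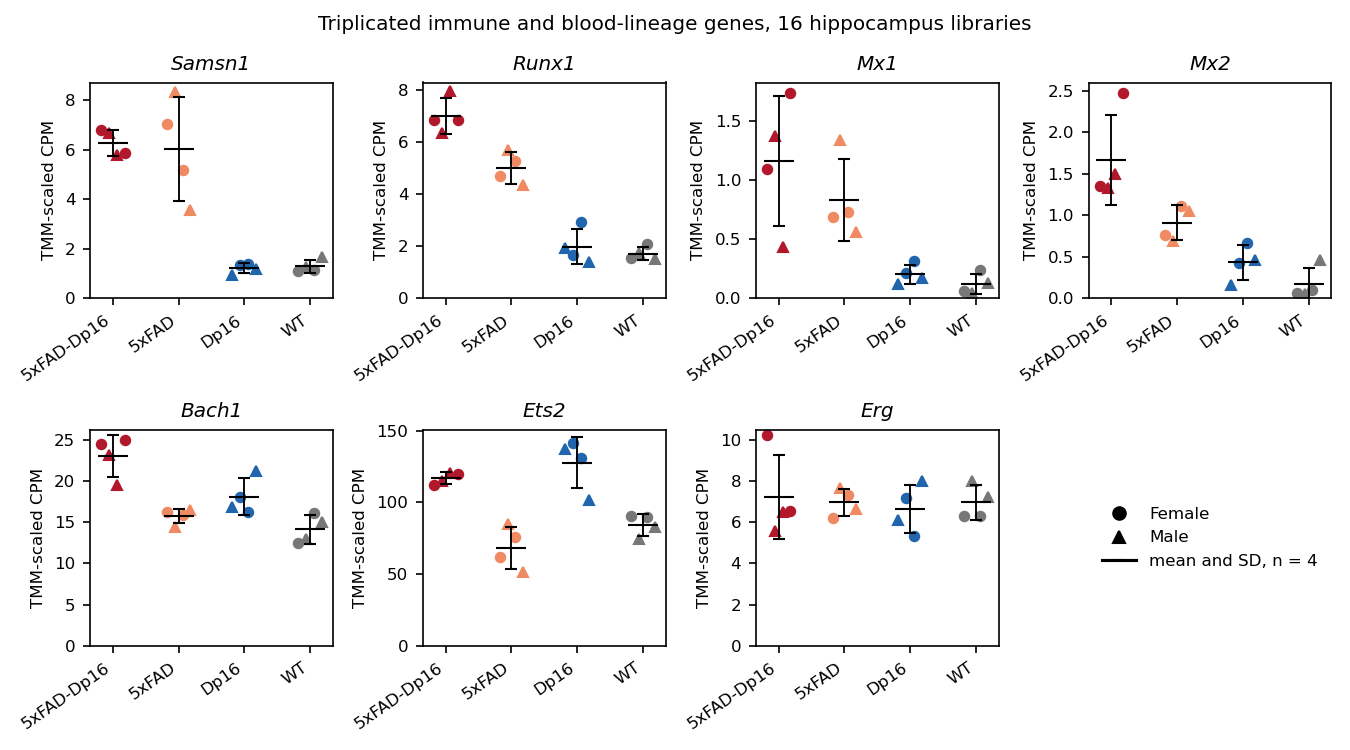
TMM-scaled CPM (vertical axis, linear, starting at 0) of the 7 genes in each of 4 libraries per genotype, with circles for females and triangles for males, and bars for the mean and SD. Samsn1, Runx1, Mx1 and Mx2 are higher in 5xFAD-Dp16 and 5xFAD than in Dp16 and WT, while Ets2 and Bach1 are higher in 5xFAD-Dp16 than in 5xFAD and in Dp16 than in WT.

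Gene dose was read from 3 comparisons in one model over all 16 libraries: 5xFAD-Dp16 against 5xFAD, Dp16 against WT, and the average of both. Log2 fold changes carry the standard error of the fit, and genes with an adjusted p below 0.05 (edgeR quasi-likelihood test, Benjamini-Hochberg over all 17132 genes) are said to be called, to have risen or to have fallen. In 5xFAD-Dp16 against 5xFAD, 1 of the 7 genes (Ets2) was called, where 0.304% of all genes tested were. In Dp16 against WT, 0 of 7 were called by edgeR, where 0.228% of all genes were. At an unadjusted p below 0.05 these were 2 of 7 (Ets2 and Bach1), where 5.7% of all genes were, and DESeq2 called 1 (Ets2), where it called 0.459% of the genes to which it gave an adjusted p. In the average of both, 2 of 7 (Ets2 and Bach1) were called, where 0.531% of all genes were. Of the 105 segment genes, 32 rose in 5xFAD-Dp16 against 5xFAD, 36 in Dp16 against WT and 57 in the average, and 0 fell in each. In the averaged comparison the segment's median log2 fold change was 0.51 (1.43-fold), against -0.02 over all genes tested. The interval was wholly below 1.5-fold, the ratio of 3 copies to 2, for 16 segment genes and wholly above it for 6.

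Ets2 followed gene dose in both amyloid states. It stood at 112, 115, 121 and 120 CPM in the 4 5xFAD-Dp16 libraries (1, 8, 9 and 11), and at 61.9, 84.8, 75.5 and 51.3 CPM in the 5xFAD libraries (6, 10, 13 and 15). It stood at 137, 141, 131 and 101 CPM in the Dp16 libraries (3, 5, 12 and 14), and at 90.6, 74.4, 89.8 and 82.6 CPM in the WT libraries (2, 4, 7 and 16). Every library with the duplication was above every library without it. The log2 fold change was 0.78 ± 0.13 in 5xFAD-Dp16 against 5xFAD (adjusted p = 0.0127, 1.71-fold), 0.60 ± 0.13 in Dp16 against WT (adjusted p = 0.115, 1.51-fold) and 0.69 ± 0.09 averaged (adjusted p = 0.000719, 1.61-fold), with an averaged 95% interval of 1.40 to 1.85-fold that contains 1.5-fold. The averaged call was kept without any 1 library.

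The calls of Ets2 in the single comparisons depended on the libraries and the fit. The call in 5xFAD-Dp16 against 5xFAD was lost without 5xFAD-Dp16 9 (log2 fold change 0.74, adjusted p = 0.0620, edgeR) or 5xFAD 6 (0.71, adjusted p = 0.0730). It was also lost, at nearly the same size, with the compared groups alone (0.77, adjusted p = 0.154, edgeR) and with the endothelial list as a term (0.74, adjusted p = 0.149). Ets2 was called in Dp16 against WT without Dp16 14 (0.69, adjusted p = 0.0423), 5xFAD 10 (0.60, adjusted p = 0.0108) or 5xFAD 15 (0.60, adjusted p = 0.0275). The 5xFAD libraries bear on that comparison only through what all groups share: the filter, the scaling, the sex term, the estimate of the spread and the adjustment of p. In 5xFAD-Dp16, Dp16 and WT, Ets2 was lowest in the library with high thalamus genes, and in 5xFAD the 3 such libraries were below library 10. Without these 6 libraries the log2 fold change was 0.48 ± 0.10 in 5xFAD-Dp16 against the lone 5xFAD library, which is assumed to vary like the other groups (adjusted p = 0.0392, edgeR), 0.63 ± 0.07 in Dp16 against WT (adjusted p = 0.000363) and 0.56 ± 0.06 averaged (adjusted p = 0.000145).

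Ets2 is one of a family of ETS factors. Of its 19 listed relatives 16 were tested, and in the averaged duplication comparison 1 rose and 0 fell, with a median log2 fold change of -0.07 against -0.02 over all genes. The one that rose was Gabpa, a regulator of mitochondrial genes that lies in the segment itself, with a log2 fold change of 0.66 ± 0.06 (adjusted p = 1.5e-05, edgeR).

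Bach1 was the second gene to rise with the duplication. Its levels were 24.5, 23.3, 19.5 and 25.04 CPM in 5xFAD-Dp16 libraries 1, 8, 9 and 11, and 16.2, 14.5, 15.9 and 16.5 CPM in 5xFAD libraries 6, 10, 13 and 15. Dp16 libraries 3, 5, 12 and 14 had 16.9, 18.1, 16.3 and 21.3 CPM, and WT libraries 2, 4, 7 and 16 had 12.5, 12.96, 16.1 and 15.04 CPM. The groups did not overlap in either amyloid state, although the lowest Dp16 library was close to the highest WT library. The log2 fold change was 0.55 ± 0.11 in 5xFAD-Dp16 against 5xFAD (adjusted p = 0.0577, edgeR), 0.36 ± 0.11 in Dp16 against WT (adjusted p = 0.648) and 0.45 ± 0.08 averaged (adjusted p = 0.0116, 1.37-fold, interval 1.22 to 1.54-fold). The averaged call was kept without any 1 library, but was lost without the 6 libraries of high thalamus genes (0.42 ± 0.11, adjusted p = 0.117), with the microglia list as a term (0.43, adjusted p = 0.0581) and with limma on RPKM (0.38 at a pseudocount of 0.1, adjusted p = 0.0980). Bach1 was called in 5xFAD-Dp16 against 5xFAD without Dp16 14 (0.55, adjusted p = 0.0284), 5xFAD-Dp16 9 (0.62, adjusted p = 0.0475) or 5xFAD 10 (0.51, adjusted p = 0.0203).

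The known targets of Bach1 were not called with the duplication. Of 13 target genes, heme oxygenase (Hmox1) and ferritin subunits among them, 0 rose and 0 fell in the averaged comparison by edgeR. Their median log2 fold change was -0.06 against -0.02 over all genes, with 3 of 13 above 0, and Hmox1 itself had -0.17 (adjusted p = 0.372). In 5xFAD-Dp16 against 5xFAD, 1 of 13 targets was above 0, with a median of -0.13 against -0.03 over all genes. In Dp16 against WT, 6 of 13 were above 0, with a median of -0.03. Without the 6 libraries of high thalamus genes the target median was 0.03 in 5xFAD-Dp16 against the lone 5xFAD library and -0.01 in Dp16 against WT. Of the 7 partners and rivals of Bach1 for binding sites, such as the small Maf proteins and Nfe2l2, 0 were called in the averaged comparison and the median was 0.11.

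Erg differed little between the groups. It was at 10.2, 5.59, 6.52 and 6.55 CPM in 5xFAD-Dp16 libraries 1, 8, 9 and 11, and at 6.21, 7.65, 7.32 and 6.64 CPM in 5xFAD libraries 6, 10, 13 and 15. In Dp16 libraries 3, 5, 12 and 14 it was at 6.12, 7.16, 5.34 and 8.0 CPM, and in WT libraries 2, 4, 7 and 16 at 6.29, 8.02, 6.31 and 7.23 CPM. All 4 groups overlapped, and the highest library in 5xFAD-Dp16, Dp16 and WT was the one with high thalamus genes. In 5xFAD it was the other way, as the highest was library 10, the only one without high thalamus genes. The averaged duplication effect was -0.005 ± 0.13 on the log2 scale (adjusted p = 0.989, edgeR), and its interval of 0.823 to 1.21-fold excluded 1.5-fold. Its value placed Erg 99th from the top among the 105 segment genes tested.

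Erg is a factor of endothelial cells, and markers of these cells were measured beside it. The score of the 17-gene list (mean log2 CPM relative to the WT mean) was -0.16 to 0.16 in 5xFAD-Dp16 and 0.12 to 0.21 in 5xFAD, and it was -0.25 to 0.07 in Dp16 and -0.16 to 0.23 in WT. In the averaged duplication comparison 0 of 17 were called by edgeR, with a median of -0.14. With the endothelial score as a term of the fit, the averaged effect on Erg was 0.15 ± 0.13 (adjusted p = 0.747). The tested genes on either side of Erg rose in the averaged comparison, the potassium channel gene Kcnj6 by 1.97-fold (adjusted p = 0.00919, edgeR) and Ets2, 115.5 kb away, by 1.61-fold.

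**Figure D2:**
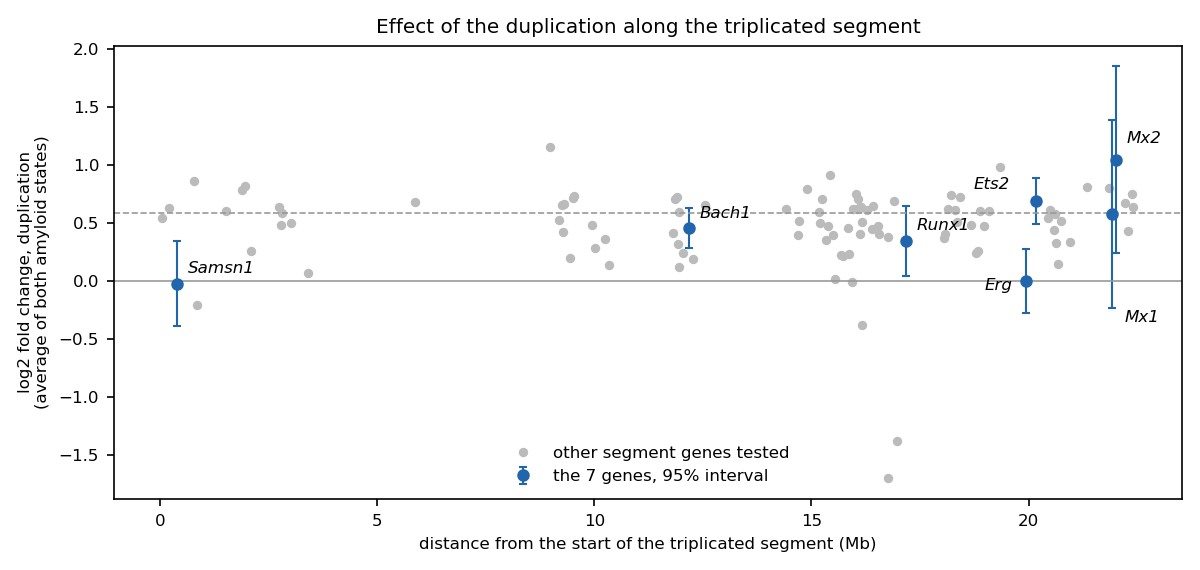
Log2 fold change of the duplication, averaged over both amyloid states (vertical axis), of the 105 tested segment genes against distance from the start of the segment in Mb (horizontal axis). The dashed line is 1.5-fold. Samsn1 and Erg have 95% intervals wholly below it, while the intervals of Ets2, Bach1, Runx1, Mx1 and Mx2 contain it.

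Samsn1 was the other gene whose averaged interval excluded 1.5-fold. It had 6.77, 6.66, 5.79 and 5.86 CPM in 5xFAD-Dp16 libraries 1, 8, 9 and 11, and 7.02, 8.34, 5.19 and 3.55 CPM in 5xFAD libraries 6, 10, 13 and 15. Levels were 0.945, 1.34, 1.38 and 1.19 CPM in Dp16 libraries 3, 5, 12 and 14, and 1.11, 1.25, 1.13 and 1.68 CPM in WT libraries 2, 4, 7 and 16. The 5xFAD-Dp16 values lay within the range of 5xFAD, and Dp16 and WT overlapped. The averaged log2 fold change was -0.02 ± 0.17 (adjusted p = 0.956, edgeR), with an interval of 0.763 to 1.27-fold, 101st of the 105 segment genes. Its tested neighbours Hspa13, a chaperone gene, and Nrip1, a nuclear receptor corepressor gene, rose 1.55-fold and 1.82-fold (adjusted p = 1.1e-05 and 0.000361). Not all neighbours of the 7 genes rose. Psmg1 beside Ets2 rose 1.45-fold (adjusted p = 0.0129, edgeR). Map3k7cl (1.18-fold) and 2810407A14Rik (1.14-fold) beside Bach1 were not called. Clic6 (0.384-fold) and Setd4 (1.29-fold) beside Runx1 were not called either, nor were Bace2 (1.75-fold) beside Mx1 and Ripk4 (1.60-fold) beside Mx2. The value of Clic6 was imprecise, at -1.38 ± 0.92 on the log2 scale. In the same comparison 12 choroid plexus markers had a median of -2.21, with 0 above 0. Whether tissue content bears on Clic6 was not tested.

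Microglia markers were measured beside Samsn1. The 14 genes of the list had a median log2 fold change of -0.29 in 5xFAD-Dp16 against 5xFAD, -0.10 in Dp16 against WT and -0.24 averaged, with 0 of 14 called in each by edgeR. For 15 markers of plaque-associated microglia the medians were -0.51, -0.0022 and -0.19 in the same order. Of these 15 markers, 0, 7 and 2 were above 0, and 0 were called in each. In 5xFAD-Dp16 against the lone 5xFAD library left without the 6 libraries of high thalamus genes, 0 of 14 rose and 2 fell. The medians over all genes tested were -0.03, 0.0015 and -0.02 in these comparisons. With the microglia score as a term, the log2 fold change of Samsn1 was 0.56 ± 0.19 in 5xFAD-Dp16 against 5xFAD (adjusted p = 0.111), 0.13 ± 0.20 in Dp16 against WT (adjusted p = 0.909) and 0.34 ± 0.15 averaged (adjusted p = 0.186). The averaged interval of Samsn1 that excluded 1.5-fold (0.585 on the log2 scale) came from the fit without this term. With the term, 1.5-fold was not excluded. The part of microglia in the result was not tested beyond this fit.

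Runx1 was not called in any duplication comparison. The averaged log2 fold change was 0.34 ± 0.14 (adjusted p = 0.252, 1.27-fold), with an interval of 1.03 to 1.57-fold. It was 0.49 ± 0.19 in 5xFAD-Dp16 against 5xFAD (adjusted p = 0.197, edgeR), where the groups did not overlap, and 0.20 ± 0.21 in Dp16 against WT (adjusted p = 0.997), where they did. Dp16 12 was the highest Dp16 library, at 2.94 CPM, and without it the value in Dp16 against WT was -0.042. The list of Runx1 partners also holds its paralog Runx2, and all its genes are called partners here for short. They include the binding partner Cbfb and the myeloid factors Spi1 and Cebpa. They gave 0 called of 7 tested in the averaged comparison by edgeR, with a median of 0.20. The blood stem cell factors Gata2, Fli1, Tal1, Lmo2 and Lyl1 gave 0 called of 5, with a median of -0.38.

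Mx1 and Mx2 were too low in Dp16 and WT for a dose ratio to be read closely. Over 4 libraries each, Mx1 had 18 counts in all in Dp16 and 10 in WT, and Mx2 had 38 in Dp16 and 15 in WT. The averaged log2 fold change was 0.58 ± 0.38 for Mx1 (adjusted p = 0.447, edgeR) and 1.05 ± 0.38 for Mx2 (adjusted p = 0.205), and both intervals, 0.852 to 2.61-fold and 1.18 to 3.61-fold, contain 1.5-fold. In 5xFAD-Dp16 against 5xFAD, Mx2 had 0.86 ± 0.46 (adjusted p = 0.316) with no overlap between the groups, and Mx1 had 0.44 ± 0.43 (adjusted p = 0.590) with overlap. WT 16 held 11 of the 15 WT counts of Mx2. Without it the averaged value for Mx2 was 1.73 and was called (adjusted p = 0.0301, edgeR), and the value in Dp16 against WT was 2.61, against 1.23 with it. Mx2 was also called in the averaged comparison without a low-count filter (1.05, adjusted p = 0.0336). Without the 6 libraries of high thalamus genes the averaged value for Mx1 was -0.0043.

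The segment also holds interferon receptor genes, which act upstream of Mx1 and Mx2. Of 9 receptor and kinase genes, 3 rose with the duplication in the averaged comparison, all in the segment: Ifnar1 by 0.62 ± 0.05, Ifngr2 by 0.75 ± 0.08 and Ifnar2 by 0.45 ± 0.07 on the log2 scale (adjusted p = 3.2e-06, 3.6e-05 and 0.00525). Of 34 interferon response genes, 0 were called in this comparison by edgeR. Their median was 0.14 in Dp16 against WT, with 28 of 34 above 0 and 0 called, and -0.03 in 5xFAD-Dp16 against 5xFAD, with 15 of 34 above 0 and 0 called. The averaged median was 0.06 against -0.02 over all genes. The list score (mean log2 CPM relative to the WT mean) was 0.43 in Dp16 12 and -0.0017, 0.033 and 0.075 in Dp16 3, 5 and 14. In WT it ran from -0.18 to 0.29, so only Dp16 12 lay above the WT range. The listed genes share these libraries, so their signs are not separate observations.

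**Figure D3:**
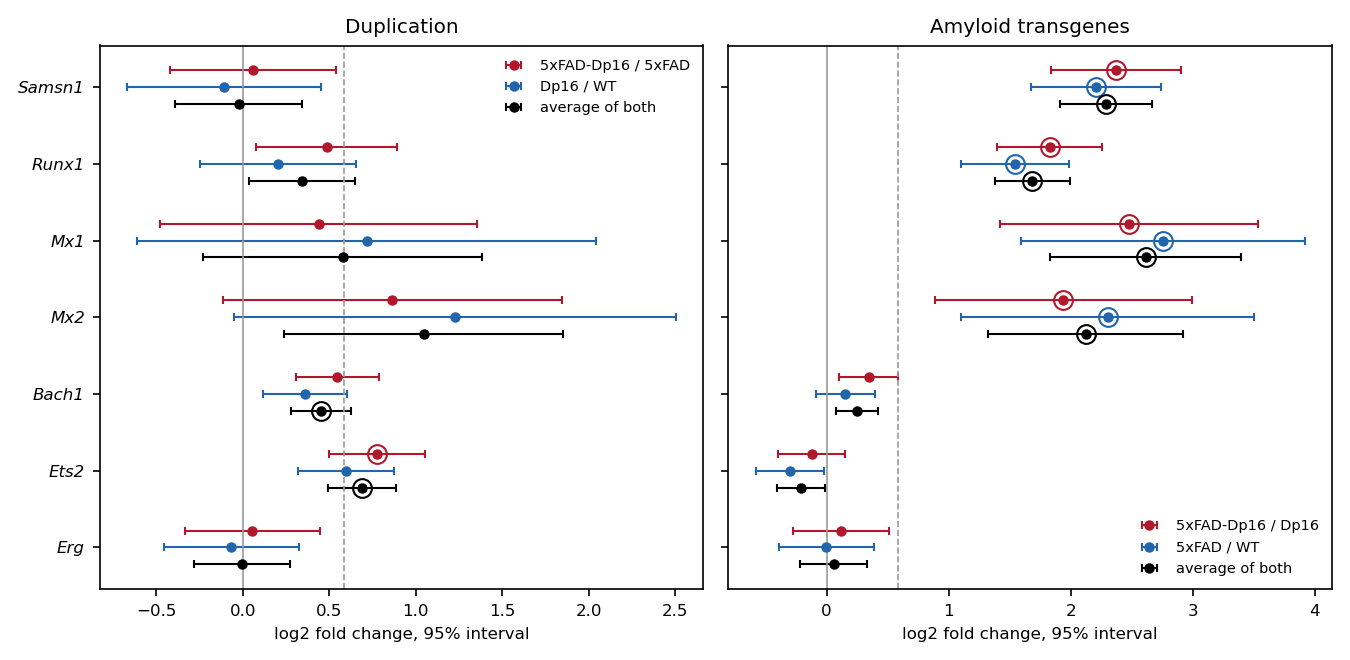
Log2 fold changes with 95% intervals of the 7 genes for the duplication (left) and the amyloid transgenes (right), each in the 2 single comparisons and their average. Rings mark called genes, the solid line is no change and the dashed line 1.5-fold. Ets2 and Bach1 carry rings on the left, and Samsn1, Runx1, Mx1 and Mx2 on the right in all 3 comparisons. Mx1 and Mx2 passed the low-count filter only through the amyloid groups.

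Amyloid induction was read in the same way, from 5xFAD-Dp16 against Dp16, 5xFAD against WT and their average. Samsn1, Runx1, Mx1 and Mx2 rose in all 3, while Bach1, Ets2 and Erg were not called. Mx1 and Mx2 passed the filter only through the amyloid groups, which favours a rise in these comparisons. Their calls are therefore given as a description only, and they are left out of the count. Of the other 5 genes, Samsn1 and Runx1 rose and 0 fell in each comparison. Of all genes tested, 3.02% were called in 5xFAD-Dp16 against Dp16, 7.26% in 5xFAD against WT and 8.6% in the average. The 105 segment genes had a median log2 fold change of 0.04 in the average, against 0.01 over all genes, with 7 rising and 2 falling. Without 5xFAD 10, 3486 genes in all were called in 5xFAD against WT, where 1244 were with it. The 2 single comparisons share no library, but each shares its libraries with the duplication comparisons, so the 2 kinds of value are given side by side and not correlated.

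Samsn1 rose by 2.37 ± 0.25 on the log2 scale in 5xFAD-Dp16 against Dp16 (5.18-fold, adjusted p = 2.1e-05, edgeR) and by 2.21 ± 0.25 in 5xFAD against WT (4.61-fold, adjusted p = 2.6e-05). Every amyloid library was above every library without the transgenes. Leaving out any 1 library kept both calls, with values of 2.26 to 2.44 and 1.956 to 2.41. Among 12 genes of immune receptor signalling listed with Samsn1, 11 rose in 5xFAD-Dp16 against Dp16 and 10 in 5xFAD against WT, with medians of 1.03 and 1.02. The phosphatase genes Ptpn6 (1.83 ± 0.16 and 2.02 ± 0.16) and Inpp5d (1.28 ± 0.16 and 1.11 ± 0.16), which like Samsn1 restrain immune receptors, were among those of smallest p in both.

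Runx1 libraries stood at 6.86, 6.35, 7.96 and 6.87 CPM in 5xFAD-Dp16 (1, 8, 9 and 11), and at 1.93, 1.66, 2.94 and 1.40 CPM in Dp16 (3, 5, 12 and 14). They stood at 4.68, 5.71, 5.29 and 4.36 CPM in 5xFAD (6, 10, 13 and 15), and at 1.54, 1.73, 2.07 and 1.51 CPM in WT (2, 4, 7 and 16). Neither pair of groups overlapped, and 5xFAD-Dp16 was highest of the 4 groups with no overlap. The log2 fold change was 1.83 ± 0.20 in 5xFAD-Dp16 against Dp16 (3.55-fold, adjusted p = 3.4e-05, edgeR) and 1.54 ± 0.21 in 5xFAD against WT (2.92-fold, adjusted p = 0.000145), and both calls were kept without any 1 library.

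Of 7 tested partners of Runx1, the myeloid factor genes Spi1 and Cebpa rose in both amyloid comparisons. Spi1 changed by 1.29 ± 0.16 in 5xFAD-Dp16 against Dp16 and by 1.49 ± 0.16 in 5xFAD against WT, and Cebpa by 0.77 ± 0.14 and 0.85 ± 0.15. In 5xFAD against WT 3 genes of this list fell, with log2 fold changes of -0.43 ± 0.10 for Runx1t1, -0.31 ± 0.08 for Cbfa2t2 and -0.67 ± 0.19 for the paralog Runx2. In 5xFAD-Dp16 against Dp16 0 fell. Neither comparison had a partner that fell without the 6 libraries of high thalamus genes. The ETS family gave 4 rising and 0 falling of 16 in each comparison. Spi1 and the lymphoid and myeloid factor Elf4 (1.63 ± 0.26 and 1.24 ± 0.26) led both, with Elf1 (0.63 ± 0.15) next in 5xFAD-Dp16 against Dp16 and Fli1 (0.64 ± 0.15) next in 5xFAD against WT. Of the 5 blood stem cell factors, 1 rose in 5xFAD-Dp16 against Dp16 (Fli1, 0.63 ± 0.15) and 3 in 5xFAD against WT (Lyl1, Lmo2 and Fli1, by 1.27 ± 0.26, 0.79 ± 0.17 and 0.64 ± 0.15).

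Mx1 was at 1.09, 1.38, 0.434 and 1.74 CPM in 5xFAD-Dp16 libraries 1, 8, 9 and 11, and at 0.123, 0.214, 0.312 and 0.169 CPM in Dp16 libraries 3, 5, 12 and 14. It was at 0.686, 1.34, 0.728 and 0.562 CPM in 5xFAD libraries 6, 10, 13 and 15, and at 0.0617, 0.0480, 0.235 and 0.126 CPM in WT libraries 2, 4, 7 and 16. Neither pair overlapped, although these are 9 to 38 counts a library in 5xFAD-Dp16 and 1 to 5 in WT. The log2 fold change was 2.48 ± 0.50 in 5xFAD-Dp16 against Dp16 (5.57-fold, interval 2.68 to 11.6, adjusted p = 0.00753, edgeR) and 2.75 ± 0.55 in 5xFAD against WT (6.75-fold, interval 3.01 to 15.1, adjusted p = 0.00577). Both calls were kept without any 1 library. Without the 6 libraries of high thalamus genes the values were 2.71 ± 0.58 (adjusted p = 0.0192, edgeR) and, with 1 5xFAD library, 3.72 ± 0.80 (adjusted p = 0.0270). With the compared groups alone Mx1 did not pass the filter in 5xFAD-Dp16 against Dp16.

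Mx2 was at 1.35, 1.33, 1.496 and 2.47 CPM in 5xFAD-Dp16 libraries 1, 8, 9 and 11, and at 0.164, 0.428, 0.668 and 0.466 CPM in Dp16 libraries 3, 5, 12 and 14. It was at 0.767, 0.689, 1.12 and 1.05 CPM in 5xFAD libraries 6, 10, 13 and 15, and at 0.0617, 0.0480, 0.0942 and 0.462 CPM in WT libraries 2, 4, 7 and 16. Neither pair overlapped. The log2 fold change was 1.94 ± 0.50 in 5xFAD-Dp16 against Dp16 (3.84-fold, adjusted p = 0.0432, edgeR) and 2.30 ± 0.57 in 5xFAD against WT (4.93-fold, adjusted p = 0.0218).

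The single calls of Mx2 were not stable to leaving out a library, while the averaged call (2.12 ± 0.38, adjusted p = 0.00127, edgeR) was kept without any 1 library. The call in 5xFAD against WT was lost without WT 2, WT 4, WT 7 or 5xFAD 15 (log2 fold changes 2.03, 2.02, 2.05 and 2.16, adjusted p between 0.0585 and 0.0866), and the value was 3.70 without WT 16. It was also lost with the compared groups alone (2.39, adjusted p = 0.0778, edgeR). The call in 5xFAD-Dp16 against Dp16 was lost in 10 of 16 such fits, without any one of the 4 Dp16 or the 4 5xFAD-Dp16 libraries, 5xFAD 6 or 5xFAD 13 (1.66 to 2.23, adjusted p between 0.0593 and 0.177). Without the 6 libraries of high thalamus genes Mx2 was not called, at 2.19 ± 0.61 in 5xFAD-Dp16 against Dp16 (adjusted p = 0.0661, edgeR), 1.77 ± 0.91 in 5xFAD against WT (adjusted p = 0.471) and 1.98 ± 0.56 averaged (adjusted p = 0.0790).

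Other interferon response genes rose beside Mx1 and Mx2. Of 34 listed, 24 rose in 5xFAD-Dp16 against Dp16 and 30 in 5xFAD against WT, and 0 fell in either, with medians of 1.12 and 1.36 against -0.01 and 0.03 over all genes. The numbers that rose were 17 and 9 without the 6 libraries of high thalamus genes, with medians of 0.96 and 1.18. The genes of smallest p were the nucleic acid sensor gene Zbp1 (3.62 ± 0.40), Parp14 (1.17 ± 0.15) and the ubiquitin ligase gene Trim25 (0.85 ± 0.11) in 5xFAD-Dp16 against Dp16, and Ifit3 (1.89 ± 0.20), Zbp1 (3.01 ± 0.34) and Ifit3b (1.44 ± 0.16) in 5xFAD against WT.

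**Figure D4:**
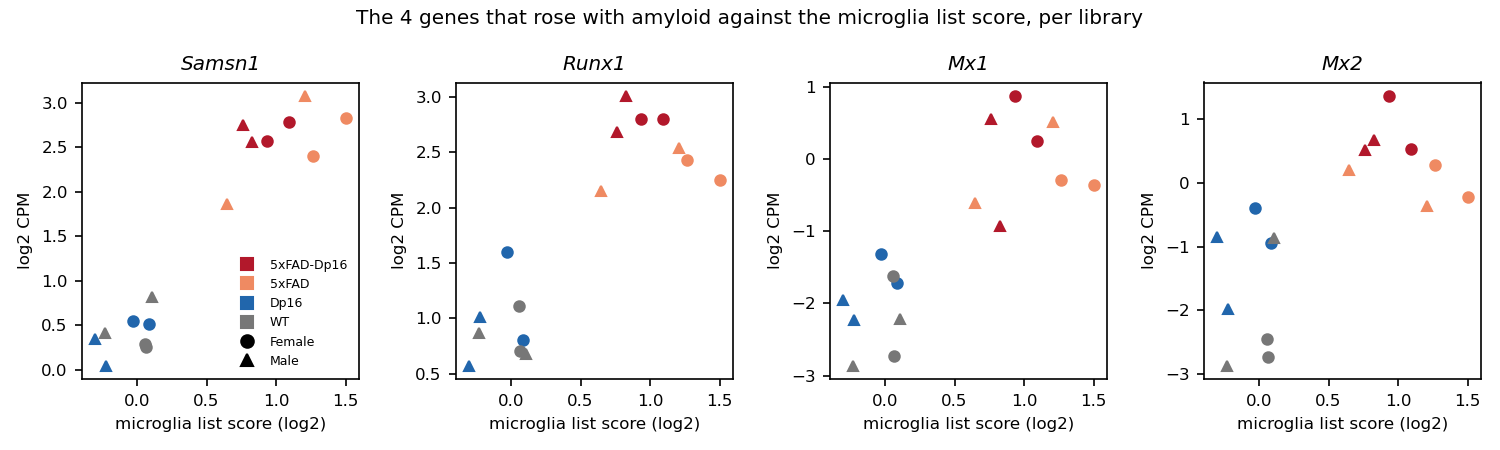
Log2 CPM (vertical axis) of Samsn1, Runx1, Mx1 and Mx2 against the microglia list score, the mean log2 CPM of 14 genes relative to the WT mean (horizontal axis), in 16 libraries colored by group, with circles for females and triangles for males. The 8 amyloid libraries lie at scores of 0.64 to 1.503 and the 8 others at -0.30 to 0.11, so both axes separate them.

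Markers of microglia rose in the same comparisons as these 4 genes. The 14 general markers rose, 14 of 14, in both amyloid comparisons, and of 15 plaque-associated markers 11 rose in 5xFAD-Dp16 against Dp16 and 14 in 5xFAD against WT. The summed level of the 14 general markers was 902 to 1084 CPM in 5xFAD-Dp16 and 801 to 1475 CPM in 5xFAD, against 421 to 533 CPM in Dp16 and 429 to 526 CPM in WT. The medians of the general markers were 1.06 in 5xFAD-Dp16 against Dp16 and 1.15 in 5xFAD against WT, and those of the plaque-associated markers were 1.92 and 2.82. The 4 genes lay above the median of the general markers in both comparisons. Runx1 lay below the median of the plaque-associated markers in both, and in 5xFAD against WT all 4 genes did. Mx1 and Mx2 are placed here as a description only, because they passed the filter only through the amyloid groups. Cd3e, a T cell gene at low counts, also rose, by 2.43 ± 0.62 and 3.66 ± 0.80. Only 5 of the 15 lymphocyte and neutrophil markers passed the filter, and 1 and 2 of them rose, or 0 in each without the 6 libraries of high thalamus genes. Markers of red cells and platelets (7 tested), choroid plexus (12), meninges (7) and thalamus (16) had 0 called by edgeR in any duplication or amyloid comparison. The choroid plexus list varied most of these, with median log2 fold changes between -3.43 (Dp16 against WT) and 1.71 (5xFAD-Dp16 against Dp16). Lists without calls could still lean to one side. Of the 16 thalamus genes, 16 were above 0 in 5xFAD against WT (median 0.61) and 0 in 5xFAD-Dp16 against 5xFAD (median -0.52). Of the 7 meninges genes, 0 were above 0 in 5xFAD-Dp16 against 5xFAD (median -0.69), Dp16 against WT (-0.56) and their average (-0.68). Of the 8 hippocampal neuron markers 1 (Wfs1, -0.65 ± 0.17, adjusted p = 0.0276, edgeR) fell in 5xFAD against WT, where all 8 had values below 0 and the median was -0.39, and 0 were called in 5xFAD-Dp16 against Dp16, where the median was -0.31. Of the microglia markers, 14 general and 10 plaque-associated ones rose in 5xFAD-Dp16 against Dp16 without the 6 libraries of high thalamus genes, and 12 and 11 in 5xFAD against WT. The part of cell numbers in these results was not tested.

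Bach1, Ets2 and Erg had values nearer 0. Bach1 had 0.34 ± 0.11 in 5xFAD-Dp16 against Dp16 (adjusted p = 0.166, edgeR) and 0.15 ± 0.11 in 5xFAD against WT (adjusted p = 0.426), and 0.25 ± 0.08 averaged (adjusted p = 0.0666). It was called in the average without Dp16 14 (0.30, adjusted p = 0.0186), 5xFAD-Dp16 9 (0.29, adjusted p = 0.0402) or 5xFAD 10 (0.27, adjusted p = 0.0370), and in 5xFAD-Dp16 against Dp16 without Dp16 14 (0.45, adjusted p = 0.0374). Of the 13 Bach1 targets, 2 rose in 5xFAD-Dp16 against Dp16 and 3 in 5xFAD against WT, with 0 falling: Hmox1 by 0.75 ± 0.14 and 0.74 ± 0.14, the ferritin light chain gene Ftl1 by 0.49 ± 0.09 and 0.70 ± 0.09, and the heavy chain gene Fth1 in 5xFAD against WT alone, by 0.40 ± 0.10. Nfe2l2, the activator that competes with Bach1, rose by 0.67 ± 0.13 and 0.58 ± 0.13, 1 of 7 partners and rivals called in each.

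Ets2 had log2 fold changes of -0.12 ± 0.13 in 5xFAD-Dp16 against Dp16 (adjusted p = 0.809, edgeR), -0.30 ± 0.13 in 5xFAD against WT (adjusted p = 0.168) and -0.21 ± 0.09 averaged (adjusted p = 0.165). Without 5xFAD 10, which leaves 3 5xFAD libraries of high thalamus genes, Ets2 was called lower in 5xFAD against WT (-0.46, adjusted p = 0.0111) and in the average (-0.29, adjusted p = 0.0142). It was also called lower without a low-count filter, in 5xFAD against WT (-0.30, adjusted p = 0.0437, edgeR) and in the average (-0.21, adjusted p = 0.0451). Without the 6 libraries of high thalamus genes it was at -0.018 ± 0.10 in 5xFAD against WT (adjusted p = 0.964). Erg had 0.12 ± 0.18, -0.0018 ± 0.18 and 0.06 ± 0.13 in the 2 single comparisons and the average (adjusted p = 0.874, 0.996 and 0.823), and the averaged interval was 0.860 to 1.26-fold. Of the 17 endothelial genes 0 were called in either comparison by edgeR.

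**Figure D5:**
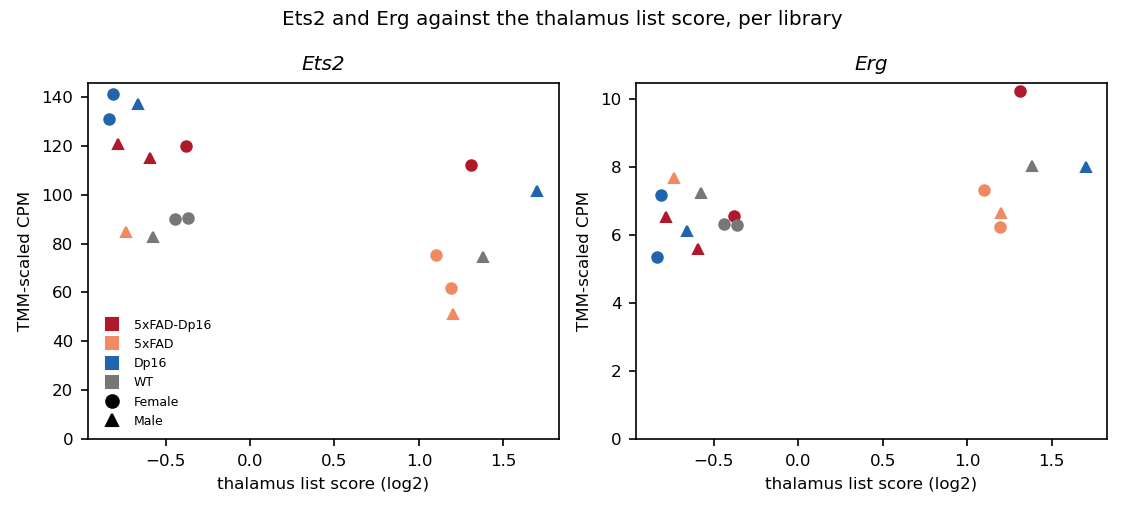
TMM-scaled CPM (vertical axis, linear, starting at 0) of Ets2 and Erg against the thalamus list score, the mean log2 CPM of 16 genes relative to the WT mean (horizontal axis), in 16 libraries colored by group, with circles for females and triangles for males. The 6 libraries at the right hold the lowest Ets2 level of every group. For Ets2, the 5xFAD-Dp16 and Dp16 libraries lie above the 5xFAD and WT libraries at every score range.

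Whether the duplication changed the response to the transgenes was tested as an interaction, the difference between the log2 fold changes in 5xFAD-Dp16 against Dp16 and in 5xFAD against WT. Of the 7 genes 0 were called by edgeR, where 0% of all genes tested were, 0 of 7 had an unadjusted p below 0.05, where 6.5% of all genes did, and DESeq2 called 0 genes. The differences were 0.17 ± 0.35 for Samsn1, 0.28 ± 0.29 for Runx1, -0.28 ± 0.72 for Mx1 and -0.36 ± 0.73 for Mx2 on the log2 scale. They were 0.19 ± 0.16 for Bach1, 0.18 ± 0.19 for Ets2 and 0.12 ± 0.26 for Erg. The 95% intervals were wide for the induced genes, 0.672 to 1.87-fold for Samsn1 and 0.797 to 1.86-fold for Runx1, so a response 1.5-fold larger with the duplication lay within both.

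Profiles over the 16 libraries were compared by the root mean square difference of mean-centred log2 CPM among 13485 genes, as a description. The nearest to Samsn1 were the myeloid genes Ly86 (0.27), Irf8 (0.28) and Mpeg1 (0.28). Nearest to Runx1 were Lgals3bp (0.26), the reactive astrocyte gene Serpina3n (0.28) and Thy1 (0.28). For Mx1 they were the complement gene C4b (0.45), Ptprc (0.48) and Was (0.48), and for Mx2 C4b (0.60), the interferon-induced gene Oas1a (0.63) and C3ar1 (0.64).

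All 3 nearest to Bach1 (Paxbp1 at 0.16, Hmgn1 at 0.17 and Sod1 at 0.17) and all 3 nearest to Ets2 (Dop1b at 0.09, Tiam1 at 0.13 and Itsn1 at 0.14) lie in the triplicated segment. The nearest to Erg were Rarg (0.13), Caskin2 (0.14) and Zfp423 (0.14), none of them in the segment. These genes share libraries, depth and tissue content with the gene they resemble, and a gene whose level varies less between libraries has smaller differences.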

How the data were processed

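RNA was extracted with TRIzol, enriched for poly(A) and made into strand-specific libraries with a Tecan/Nugen Universal Plus mRNA Kit, read as pairs of 150 bases, per the labels' protocols. Per the submitters' processing notes, the build was GRCm38 and the tools were HTSeq 0.6.1, HISAT2 2.1.0, SAMtools 1.5, FastQC 0.11.5 and bcl2fastq. The deposited table is named for GENCODE M24. What each tool did, the strand option and the treatment of multimapping reads were not given in the sources used here. The authors deposited raw read counts per gene and RPKM values; the counts were used for every main test and RPKM for levels per length and as an alternative.

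Counts were analysed in R 4.3.3 with edgeR 4.0.16: filterByExpr with a minimum count of 10 (0.436 CPM), TMM factors of 0.944 to 1.13, and a robust quasi-likelihood fit to all 16 libraries with group and sex as terms. The scripts were tested on simulated data with known fold changes. Adjusted p-values are Benjamini-Hochberg values over 17132 genes, and standard errors and 95% intervals come from the fit. Positions are from GENCODE M21 on GRCm38, and promoter windows from RefSeq. Alternatives used DESeq2 1.42.0, limma 3.58.1 and other settings. Figures were drawn with matplotlib in Python.

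The 7 genes and the 17 gene lists were chosen with earlier results of these data known. Named are the 7 genes, up to 3 called genes of smallest p per list and comparison, and the 3 genes of nearest profile, taken from genes averaging at least 0 in log2 CPM. Segment neighbours and further examples within lists were named after their values were seen.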

Additional observations from a re-analysis of the deposited data

Results flagged for a closer look

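Of 28 sets of 4 libraries (7 genes in 4 groups), 2 held a library that stood far from the other 3, both for Mx2. In 5xFAD-Dp16, library 11 had 2.47 CPM, and the nearest of the others had 1.496 CPM. In WT, library 16 had 0.462 CPM, and the nearest of the others had 0.0942 CPM. The gaps were 0.856 and 0.889 of the group's range, more than Dixon's 95% critical value for 4 samples, which chance passes in about 1 in 20 groups.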

How the results depend on the processing

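Of 1194 values of single genes under the alternatives, 1083 kept their direction and their side of the threshold, 26 lost a call, 27 gained one and 58 changed sign, mostly values near 0. In Dp16 against WT 0 genes of the 7 were called, but 1 (Ets2) was with DESeq2, without a low-count filter, with the compared groups alone, with limma on RPKM at either pseudocount, without the 6 libraries of high thalamus genes and with the microglia list as a term. In 5xFAD-Dp16 against 5xFAD 1 was called, but 2 were with RLE normalization, with DESeq2, without a low-count filter and without the sex term, and 0 with the compared groups alone or the endothelial list as a term. In the averaged duplication comparison 2 were called, but 1 with limma on RPKM at either pseudocount, without the 6 libraries and with the microglia list as a term. The cause was not tested in any of these.

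The sign of the log2 fold change turned in these cases, none of them called. Erg turned in the averaged duplication comparison to 0.010 with RLE normalization or DESeq2, 0.037 with the microglia list and 0.15 with the endothelial list, in Dp16 against WT to 0.0051 with the endothelial list, in 5xFAD against WT to 0.014 with the compared groups alone, 0.075 and 0.051 with limma on RPKM at pseudocounts of 0.1 and 1 and 0.19 without the 6 libraries, and in 5xFAD-Dp16 against 5xFAD to -0.061 and -0.036 with limma and -0.28 without the 6 libraries. Samsn1 turned to 0.13 in Dp16 against WT and 0.34 averaged with the microglia list, 0.030 averaged with the endothelial list, and -0.42 in 5xFAD-Dp16 against 5xFAD without the 6 libraries. Mx1 turned to -0.51 in 5xFAD-Dp16 against 5xFAD and -0.0043 averaged without the 6 libraries. In the interaction Mx1 turned to 0.015 and 0.059 with limma at the smaller and larger pseudocount, and Mx2 to 0.13 with limma at a pseudocount of 1. Without the 6 libraries the interaction was -0.30 for Samsn1, -0.071 for Runx1, 0.42 for Mx2, -0.15 for Ets2 and -0.18 for Erg.

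Leaving out 1 library at a time, 0 to 1 of the 7 were called in Dp16 against WT and 0 to 2 in 5xFAD-Dp16 against 5xFAD. Signs turned within these ranges: for Samsn1 -0.18 to 0.062 in Dp16 against WT, -0.13 to 0.30 in 5xFAD-Dp16 against 5xFAD, -0.12 to 0.089 in their average and -0.033 to 0.42 in the interaction; for Runx1 -0.042 to 0.33 in Dp16 against WT; for Mx1 -0.74 to 0.18 in the interaction. For Erg the ranges were -0.18 to 0.030 in Dp16 against WT, -0.17 to 0.19 in 5xFAD-Dp16 against 5xFAD, -0.12 to 0.062 in their average, -0.056 to 0.076 in 5xFAD against WT, -0.11 to 0.25 in 5xFAD-Dp16 against Dp16, -0.055 to 0.12 in their average and -0.11 to 0.25 in the interaction.

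The number of all genes called moved more. In 5xFAD-Dp16 against 5xFAD it was 52, against 720 with DESeq2, 1656 without a filter, 101 without the 6 libraries, 10 with the compared groups alone, 28 with the endothelial list and 32 to 2045 without 1 library (2045 without 5xFAD 10). In Dp16 against WT it was 39, against 74 with DESeq2, 360 without a filter and 69 without the 6 libraries. In the averaged duplication comparison it was 91, against 489 with DESeq2, 1447 without a filter, 49 with the endothelial list and 64 to 1199 without 1 library (1199 without 5xFAD 10). In 5xFAD against WT it was 1244, against 2124 with DESeq2, 2692 without a filter, 516 with the compared groups alone, 300 without the 6 libraries and 562 to 3486 without 1 library. In 5xFAD-Dp16 against Dp16 it was 518, against 890 without a filter, and in the averaged amyloid comparison 1473, against 2367 with DESeq2, 2793 without a filter, 629 without the 6 libraries and 1050 to 3327 without 1 library. The interaction had 0, against 290 without a filter and 15 without the 6 libraries.

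An added alternative, chosen after seeing the data, counted the listed genes called without the 6 libraries. In 5xFAD against WT, called genes were 5 for immune receptor signalling, 1 for Runx1 partners, 1 for blood stem cell factors, 1 for Bach1 targets, 0 for Bach1 partners and rivals, 1 for the ETS family and 0 for lymphocytes and neutrophils. Mx1 in 5xFAD-Dp16 against Dp16, and Mx1 and Mx2 in Dp16 against WT, gave no value with the compared groups alone.

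No paired analysis was possible because the title numbers are unique to each library. With 4 libraries a group, and 1 to 15 counts of Mx1 and Mx2 in each WT and Dp16 library, depth limits what can be said of their dose. The 6 libraries include 3 of 4 in 5xFAD, so without them that group is 1 library.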
